A study of Mus musculus with 57 samples.

Results

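The genes described here are 10 genes of major histocompatibility complex (MHC) class I antigen presentation and of the immunoproteasome. They are the classical class I heavy chains H2-K1 and H2-D1, their light chain B2m (beta-2 microglobulin), the subunits Tap1 and Tap2 of the peptide transporter, the peptide-loading factor Tapbp (tapasin), the class I transactivator Nlrc5, and the inducible proteasome subunits Psmb8, Psmb9 and Psmb10. They are a list of symbols, not a selection by a threshold on these counts, and were found in both deposited count tables, as 10 of 50565 genes in the first and 10 of 53278 in the second. All 10 passed the filter on low counts in both tables, as did 31709 and 17954 genes in all.

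Class I molecules display peptides from inside the cell to CD8 T cells. Proteasomes cut the peptides, the Tap1-Tap2 transporter carries them into the endoplasmic reticulum, and tapasin helps to load them onto heavy chains paired with B2m. Interferons raise the transcription of most of these genes, through interferon regulatory factors and the transactivator Nlrc5, and replace the constitutive catalytic proteasome subunits with the inducible ones. Microglia, the resident macrophages of the brain, keep class I low at rest and raise it in inflammation.

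RNA was sequenced from CD11b-positive brain cells of wild-type (WT) mice and of littermates deficient in P2RY12 (KO), a receptor for extracellular nucleotides that marks resting microglia; the labels do not say how the gene was disrupted or whether it was lost in microglia alone. In the sex experiment the adult animals were 4 WT and 5 KO males and 4 WT and 5 KO females, none of them assigned to a treatment group. The LPS experiment held 8 libraries of WT mice labelled ns, 9 of WT mice given LPS, 8 of KO mice labelled ns and 8 of KO mice given LPS. LPS (lipopolysaccharide), an inflammatory molecule of the outer membrane of Gram-negative bacteria, was given by intraperitoneal injection at 1 mg/kg. What ns stands for, the time after injection and the sex of the mice of the LPS experiment are not in the labels. The labels do not say that its libraries came from separate mice, so its p-values measure the spread between these libraries, which may in part be technical.

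Libraries held 58.5 to 318.5 M counts (median 92.0 M) in the sex experiment and 15.9 to 168.4 M (median 24.7 M) in the LPS experiment. P2ry12 was at 3007 CPM (counts scaled to a library total of 1 M) or more in every WT animal of the sex experiment and at most 526.4 in the KO animals. In the LPS experiment it ran from 3536 to 5476 CPM in WT ns and from 405 to 1020 in WT LPS samples, without the WT libraries set apart below. KO ns samples ran from 588 to 1169 CPM and KO LPS samples from 85.2 to 148, so that WT LPS and KO ns samples overlapped. Microglial marker genes summed to 22835 to 35328 CPM in the sex experiment and to 17293 to 37105 CPM in the LPS experiment. No marker of the other cell types searched was at 0 in every library of a group. Because the samples are bulk cells, a lower level in fewer cells and a lower level in each cell cannot be told apart.

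Some libraries of the LPS experiment stand apart. The 4 WT libraries of library number 2 (WT ns 1, WT ns 5, WT LPS 1 and WT LPS 6) go against their treatment labels. Saa3, an acute-phase gene, was at 1814 and 2426 CPM in WT ns 1 and in WT ns 5, against 1.53 to 64.7 in the other WT ns libraries. It was at 1.61 and 2.98 CPM in WT LPS 1 and in WT LPS 6, against 1417 to 9329 in the other WT LPS libraries. These 4 are shown apart and enter no comparison of groups other than as labelled. They do enter the fit, with means of their own, and the correlations between genes described below. Results as labelled are given beside those for WT. A further split was made after seeing the data: mitochondrial genes took 2.69% to 8.55% of the counts in 6 libraries (WT ns 5, WT LPS 6, WT LPS 7, KO ns 5, KO ns 6 and KO LPS 5) and 0.79% to 1.81% in the other 27. All 6 are of library set 2 and none is of set 1, as the sets are read from the library names. Without them, KO ns 7 and KO ns 8 are the only KO ns libraries left in set 2. The results are given with these high-mitochondrial libraries and without them. The counts of WT LPS 8 and 9 came close to sampling noise (chi-square per degree of freedom 1.86, against 8.32 or more for other pairs) and were summed as 1 sample.

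Of the 10 genes, 7 lie on chromosome 17 of build GRCm39, in the MHC. Psmb9 (chr17:34401006-34406347), Tap1 (chr17:34406530-34416199), Psmb8 (chr17:34417169-34420428) and Tap2 (chr17:34423453-34435295) sit side by side within 34290 bases, and Psmb9 and Tap1 are read in opposite directions from starts 182 bases apart. Tapbp (chr17:34138452-34148264) and H2-K1 (chr17:34214986-34219316) lie on one side of this cluster and H2-D1 (chr17:35482070-35486473) on the other. B2m is on chromosome 2 (chr2:121978168-121983563), and Nlrc5 (chr8:95160963-95253900) and Psmb10 (chr8:106662360-106665024) are on chromosome 8. RefSeq promoters of build GRCm38.p6 were at hand for 8 of the 10, and the 250 bases before the start are printed for both classical heavy chains, their light chain B2m and the transporter subunit Tap1, so that the letters of genes that act in 1 complex can be read side by side. They are written 5′ to 3′ on the strand of the gene (minus for H2-K1, plus for the others), and capitals mark matches on either strand to 5 motifs: the core of the interferon-stimulated response element (GAAA, any 2 bases, GAAA), the gamma-activated site (TTCNNNGAA), kappa B (GGGA, any 4 bases, CC), site alpha (TGACGC) and the CCAAT box. The windows are chr17:34000348-34000597, chr17:35262844-35263093, chr2:122147437-122147686 and chr17:34187306-34187555.
H2-K1: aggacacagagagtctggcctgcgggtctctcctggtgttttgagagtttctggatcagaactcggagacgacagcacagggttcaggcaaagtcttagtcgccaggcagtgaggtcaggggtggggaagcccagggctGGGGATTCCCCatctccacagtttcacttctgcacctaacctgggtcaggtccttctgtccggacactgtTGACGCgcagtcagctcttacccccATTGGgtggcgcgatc
H2-D1: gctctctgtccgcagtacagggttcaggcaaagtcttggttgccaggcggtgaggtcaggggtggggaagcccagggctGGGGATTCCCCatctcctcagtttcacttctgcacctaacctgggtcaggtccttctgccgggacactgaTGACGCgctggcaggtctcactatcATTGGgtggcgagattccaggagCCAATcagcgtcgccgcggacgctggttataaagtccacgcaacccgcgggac
B2m: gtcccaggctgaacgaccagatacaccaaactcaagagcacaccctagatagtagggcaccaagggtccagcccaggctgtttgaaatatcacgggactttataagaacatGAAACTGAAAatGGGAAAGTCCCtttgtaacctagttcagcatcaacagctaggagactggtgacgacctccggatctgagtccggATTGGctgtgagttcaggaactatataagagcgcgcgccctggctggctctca
Tap1: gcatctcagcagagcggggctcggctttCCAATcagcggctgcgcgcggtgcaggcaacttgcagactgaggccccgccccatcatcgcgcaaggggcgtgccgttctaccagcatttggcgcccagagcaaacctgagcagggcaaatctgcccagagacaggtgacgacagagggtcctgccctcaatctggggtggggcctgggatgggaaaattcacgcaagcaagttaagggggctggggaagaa

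H2-K1 and H2-D1 share the same order of kappa B, site alpha and CCAAT matches, and 166 of 190 aligned bases of their windows (87.4%) are identical. The kappa B match starts 110 bases before the annotated start of H2-K1 and 170 before that of H2-D1 on the strand of the gene, and overlaps a match on the other strand by all but 1 base. B2m holds the response element core (GAAACTGAAA, starting 139 bases before the start) beside a kappa B match and a CCAAT box. Among 32851 RefSeq promoters of the same length, 3.0% hold the response element core, 17.6% kappa B, 6.1% site alpha, 7.0% the gamma-activated site and 33.8% a CCAAT box. The window of Tap1 shares 225 bases with that of Psmb9 on the other strand and holds a CCAAT box alone of the 5 motifs. Psmb8 holds a gamma-activated site (TTCCCAGAA), Tapbp 2 CCAAT boxes, and Psmb10 none of the 5. A match is a run of letters and not a shown binding site, and the windows of Tap2 and Nlrc5 were not analysed here. Looser forms of the motifs were not searched, so a window without a match may still hold such a form. Of 2 promoters listed for H2-K1 the first was used.

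The first question is how LPS moved these genes. In KO samples, 4 of the 10 rose and none fell (edgeR quasi-likelihood test, Benjamini-Hochberg adjusted p under 0.05, the rule for every call here): H2-K1, H2-D1, Tap1 and Nlrc5. Among all genes tested in this comparison 26.2% were called, 11.9% as higher. In WT samples 4 of the 10 rose and none fell, H2-K1, B2m, Nlrc5 and Psmb10, where 28.1% of all genes were called and 13.5% as higher. The median log2 fold change of the 10 was 0.45 in KO and 0.63 in WT, against -0.03 and -0.02 over all genes.

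Leaving out the high-mitochondrial libraries, 9 of the 10 rose in KO and 7 rose in WT, where Psmb9 alone fell. The background moved as well: 49.9% of all genes were then called in KO and 49.6% in WT, 25.6% and 24.5% as higher, and 25.1% as lower in WT. Medians of the 10 were 0.67 in KO and 0.57 in WT, against 0.00 and -0.01 over all genes. With the WT libraries of number 2 kept under their labels, 0 of the 10 genes and 0.0% of all genes were called in WT by edgeR (4 of the 10 had an unadjusted p under 0.05). As labelled but without the high-mitochondrial libraries, 6 of the 10 rose in WT. The share of all genes called in that setting is not given here, so this count is not weighed against it.

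**Figure D1:**
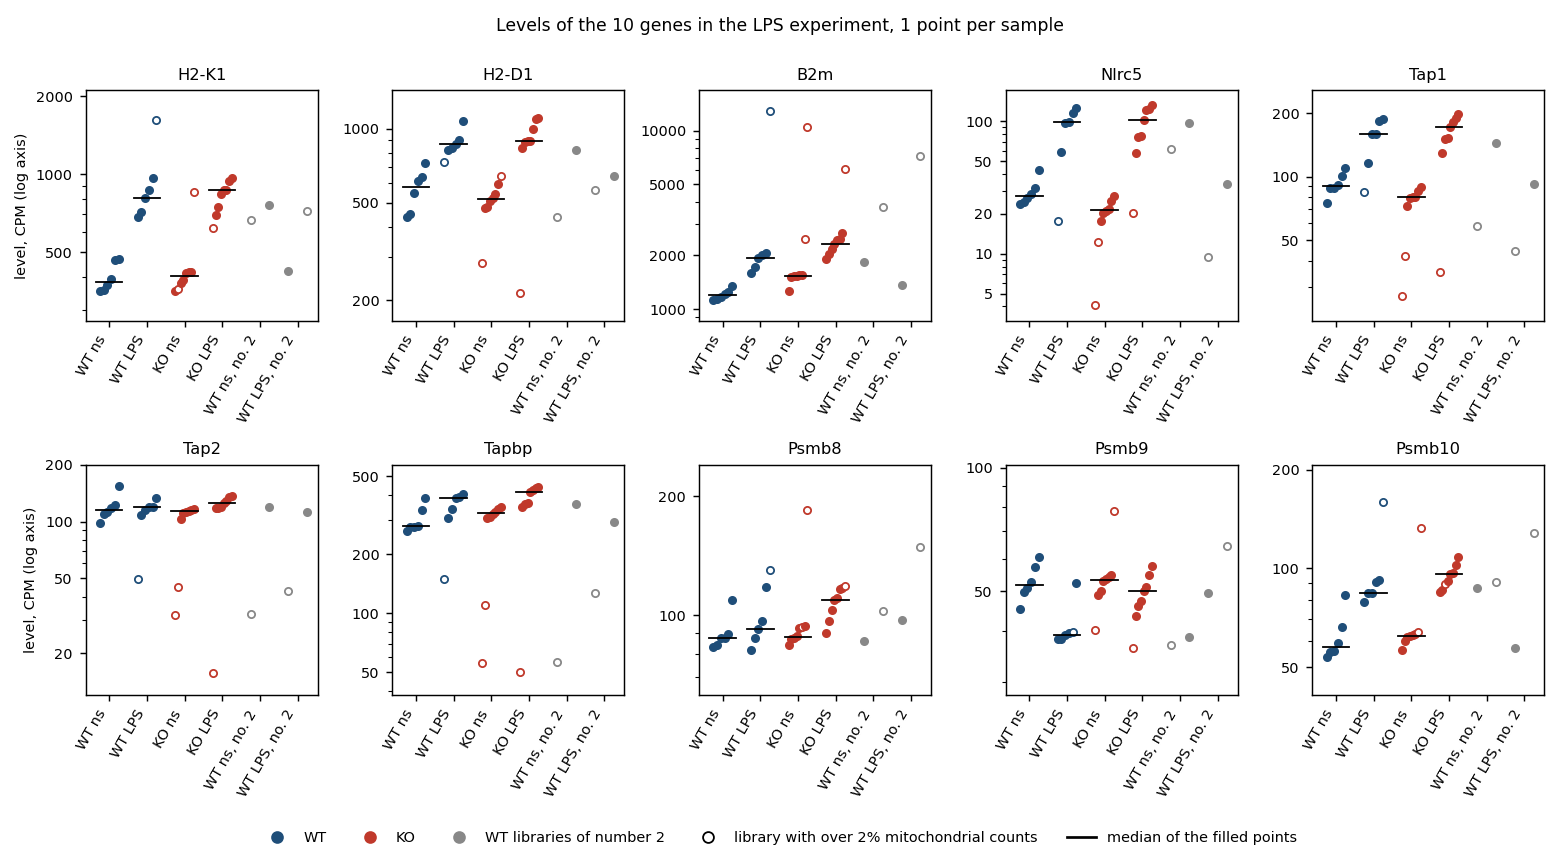
Levels in CPM (log axis) of the 10 genes in the LPS experiment, 1 point per sample, with open points for the 6 libraries over 2% mitochondrial counts and a line at the median of the filled points. The WT libraries of number 2 are drawn at the right of each panel. Apart from them, H2-K1 lies at 354 to 472 CPM in the filled ns samples and at 684 to 967 in the filled LPS samples, while the ranges of Psmb9 overlap.

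H2-K1 encodes the heavy chain of the class I molecule K. Its level in WT ns samples ran from 355 CPM through a median of 383 to 472 (n = 6), and in KO ns samples from 354 through 403 to 853 (n = 8). After LPS the WT samples were at 715, 869, 684, 965, 1617 and 812 CPM, and KO samples ran from 621 through 854 to 967 (n = 8). The WT groups did not overlap, and the KO groups overlapped through the high-mitochondrial libraries KO ns 6 (853) and KO LPS 5 (621). H2-K1 rose by a log2 fold change of 1.20 ± 0.21 (SE) in WT (edgeR adjusted p 5.36e-05) and 0.88 ± 0.18 in KO (edgeR adjusted p 0.000332). In the other libraries the mean rose from 403 ± 53.6 (SD, n = 6) to 809 ± 114 CPM (n = 5) in WT and from 396 ± 26.2 (n = 6) to 846 ± 98.5 (n = 7) in KO, with no overlap in either genotype. As labelled, the WT change was 0.82 ± 0.22 and was not called (edgeR adjusted p 0.0981). The number-2 libraries labelled WT ns were at 763 and 666 CPM and those labelled WT LPS at 421 and 720.

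H2-D1, the heavy chain of the class I molecule D, ran from 438 CPM through 581 to 730 in WT ns samples (n = 6) and from 284 through 516 to 645 in KO ns samples (n = 8). After LPS the WT samples were at 839, 900, 866, 1072, 733 and 821 CPM, all above the WT ns samples, and KO samples ran from 215 through 893 to 1104 (n = 8). The single low KO LPS value is library KO LPS 5, which is high-mitochondrial, and the next lowest was 838. H2-D1 rose in KO by 0.77 ± 0.22 on the log2 scale (edgeR adjusted p 0.00846), and in WT the change of 0.62 ± 0.25 was not called (edgeR adjusted p 0.0641). It rose in both genotypes once the high-mitochondrial libraries were left out, by 0.92 ± 0.11 in KO and 0.69 ± 0.12 in WT (edgeR adjusted p 2.7e-07 and 4.08e-05), and neither pair of groups overlapped.

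B2m, the light chain shared by all class I molecules, turned on the high-mitochondrial libraries. In the other libraries it ran from 1122 CPM through 1199 to 1351 in WT ns (n = 6) and from 1257 through 1527 to 1549 in KO ns (n = 6). After LPS the WT samples were at 1720, 2053, 1595, 1930 and 2018 CPM and KO samples ran from 1910 through 2312 to 2672 (n = 7), so that LPS and ns did not overlap in either genotype. The high-mitochondrial libraries stood far above their groups: WT LPS 7 at 12954, KO ns 6 at 10556, KO LPS 5 at 6143 and KO ns 5 at 2473 CPM. With them, B2m rose in WT by 1.34 ± 0.46 (edgeR adjusted p 0.0296) but in KO the change was 0.16 ± 0.39 (edgeR adjusted p 0.819). Leaving them out, it rose by 0.66 ± 0.08 in each genotype (edgeR adjusted p 4.43e-07 in WT and 1.37e-07 in KO). The share of mitochondrial counts moved with the B2m level in these libraries. In the libraries that remained, ribosomal protein genes took 1.69% to 1.93% of the counts in KO LPS and 1.2% to 1.44% in KO ns, and 1.52% to 1.69% in WT LPS and 1.04% to 1.25% in WT ns. Mitochondrial shares there were 1.46% to 1.79%, 1.22% to 1.6%, 1.17% to 1.81% and 0.79% to 1.25% in the same order. These shares thus moved with LPS for every gene described here, and their part in the results was not tested.

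Nlrc5, which drives transcription of class I genes, had the largest change of the 10 in every LPS comparison named so far except WT as labelled. It ran from 23.8 CPM through 27.1 to 43.2 in WT ns samples (n = 6) and from 4.07 through 20.5 to 27.3 in KO ns samples (n = 8). The WT LPS samples were at 96.4, 98.7, 58.7, 116, 17.7 and 125 CPM, and the low value is the high-mitochondrial library WT LPS 7. KO LPS samples ran from 20.3 through 90.3 to 132 (n = 8), and here too the lowest is high-mitochondrial (KO LPS 5). Nlrc5 rose by 1.52 ± 0.42 in WT and 2.26 ± 0.38 in KO (edgeR adjusted p 0.00767 and 3.43e-05). Over the remaining libraries the mean went from 29.6 ± 7.25 (SD, n = 6) to 98.9 ± 25.5 CPM (n = 5) in WT and from 22.1 ± 3.48 (n = 6) to 98.5 ± 28.4 (n = 7) in KO, without overlap. As labelled, the WT change was 0.73 ± 0.43 (edgeR adjusted p 0.299). The number-2 libraries labelled WT ns were at 96.3 and 61.5 CPM, and those labelled WT LPS at 33.6 and 9.37.

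The transporter subunits differed from each other. Tap1 ran from 74.9 CPM through 89.9 to 110 in WT ns samples (n = 6) and from 27.1 through 79.5 to 88.9 in KO ns samples (n = 8). After LPS the WT samples were at 160, 159, 116, 184, 84.7 and 187 CPM and KO samples ran from 35.3 through 162 to 197 (n = 8). Apart from the high-mitochondrial libraries, which were low in both treatments (27.1 to 84.7 CPM), every LPS sample was above every ns sample. Tap1 rose in KO by 1.14 ± 0.26 (edgeR adjusted p 0.00155), and in WT the change was 0.69 ± 0.30 (edgeR adjusted p 0.0863). Leaving those libraries out, it rose by 1.08 ± 0.11 in KO and 0.83 ± 0.11 in WT (edgeR adjusted p 1.15e-08 and 1.68e-06).

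Tap2 moved much less. Over the libraries that were not high-mitochondrial it was at 112 ± 4.77 CPM (SD, n = 6) in KO ns and 126 ± 7.94 (n = 7) in KO LPS samples, and these groups did not overlap (103 to 117 against 118 to 137). It was at 119 ± 19.0 (n = 6) in WT ns and 119 ± 8.89 (n = 5) in WT LPS samples. It rose in KO by 0.22 ± 0.07 (edgeR adjusted p 0.0147), and the WT change was 0.02 ± 0.08 (edgeR adjusted p 0.849). With all libraries neither change was called (0.29 ± 0.30 in KO and -0.14 ± 0.35 in WT), and the high-mitochondrial libraries were at 15.7 to 49.4 CPM.

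Tapbp, which bridges the transporter and empty class I molecules, was at 303 ± 49.2 CPM (SD, n = 6) in WT ns and 367 ± 41.6 (n = 5) in WT LPS samples without the high-mitochondrial libraries. In KO it was at 326 ± 16.1 (n = 6) and 399 ± 39.4 (n = 7), and these groups did not overlap. It rose by 0.34 ± 0.09 in KO and 0.30 ± 0.09 in WT (edgeR adjusted p 0.00208 and 0.0107), and with all libraries it was called in neither. The WT call ended when 2 WT ns libraries rich in neutrophil markers (WT ns 3 and WT ns 8) were also left out (0.23 ± 0.11, edgeR adjusted p 0.0927). The high-mitochondrial libraries were far lower, from 49.9 to 150 CPM.

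**Figure D2:**
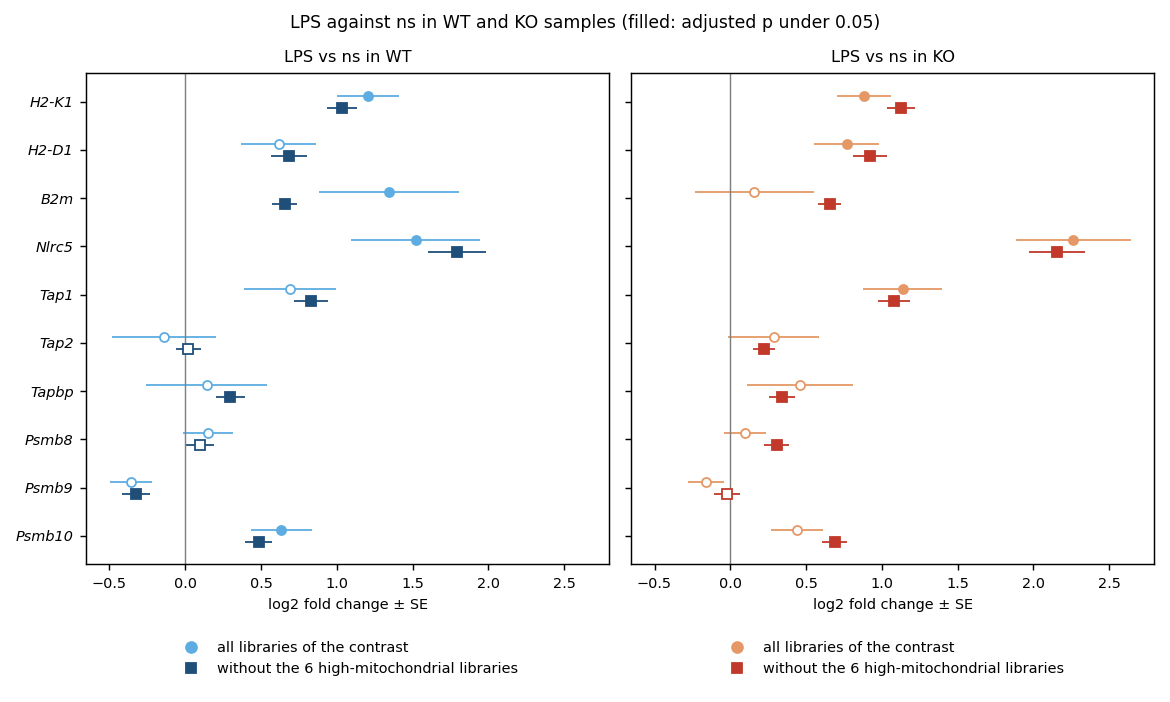
Log2 fold change of LPS against ns with its SE in WT (left) and KO (right), with circles for all libraries of the comparison and squares without the 6 high-mitochondrial libraries; filled symbols have an adjusted p under 0.05. Nlrc5 lies furthest to the right (1.52 to 2.26), H2-K1 between 0.88 and 1.20, and Psmb9 left of 0 throughout.

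The inducible proteasome subunits, which replace the catalytic subunits Psmb5, Psmb6 and Psmb7, did not move as a group. Psmb10 ran from 53.6 CPM through 57.6 to 83.3 in WT ns samples (n = 6) and from 56.6 through 62.6 to 133 in KO ns samples (n = 8). After LPS the WT samples were at 84.1, 90.7, 79.3, 92.4, 159 and 84.3 CPM and KO samples ran from 85.1 through 93.7 to 108 (n = 8). The highest values of WT LPS (159) and of KO ns (133) are high-mitochondrial libraries. Psmb10 rose in WT by 0.63 ± 0.20 (edgeR adjusted p 0.0169), and in KO the change was 0.44 ± 0.17 (edgeR adjusted p 0.0605). It rose in both genotypes with all high-mitochondrial libraries left out, by 0.69 ± 0.08 in KO and 0.49 ± 0.09 in WT (edgeR adjusted p 2.2e-07 and 6.97e-05), and the KO groups did not overlap.

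Psmb8 was at 90.4 ± 9.65 CPM (SD, n = 6) in WT ns, 95.4 ± 13.8 (n = 5) in WT LPS, 89.1 ± 3.86 (n = 6) in KO ns and 106 ± 10.1 (n = 7) in KO LPS samples, without the high-mitochondrial libraries. It rose in KO by 0.31 ± 0.08 (edgeR adjusted p 0.00338) and the WT change was 0.10 ± 0.09 (edgeR adjusted p 0.389). The groups overlapped in both genotypes, and with all libraries Psmb8 was called in neither.

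Psmb9 was the exception in direction. Without the high-mitochondrial libraries it ran from 45.3 CPM through 51.7 to 60.5 in WT ns samples (n = 6), and the WT LPS samples were at 39.1, 38.2, 38.2, 52.4 and 39.5. The other 4 WT LPS samples were below all WT ns samples, and WT LPS 5 (52.4) lay among them. In KO it was at 52.4 ± 2.34 (SD, n = 6) in ns and 50.1 ± 4.95 (n = 7) in LPS samples, which overlapped. It fell in WT by 0.32 on the log2 scale (SE 0.09, edgeR adjusted p 0.00506), and the KO change was -0.02 ± 0.08 (edgeR adjusted p 0.855). With all libraries the WT change was -0.36 ± 0.14 (edgeR adjusted p 0.0556), and as labelled it was -0.10 ± 0.15 (edgeR adjusted p 0.719). The genotype-by-LPS difference for Psmb9 was 0.30 ± 0.12 and was not called (edgeR adjusted p 0.933).

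The level of each inducible subunit was set against the constitutive subunit it replaces, as a log2 ratio of CPM in the same sample, without a test and without the high-mitochondrial libraries. Psmb8 over Psmb5 went from 1.82 ± 0.11 (SD, n = 6) in WT ns to 1.32 ± 0.18 (n = 5) in WT LPS and from 1.94 ± 0.06 (n = 6) in KO ns to 1.55 ± 0.14 (n = 7) in KO LPS samples. Psmb9 over Psmb6 went from 0.01 ± 0.17 to -0.72 ± 0.25 in WT and from -0.01 ± 0.14 to -0.45 ± 0.18 in KO. For Psmb8 every LPS sample was below every ns sample of its genotype. For Psmb9 this held in WT, while in KO the lowest ns sample (-0.201) met the highest LPS sample (-0.195). Psmb10 over Psmb7 was at 0.97 ± 0.23 in WT ns, 0.87 ± 0.09 in WT LPS, 0.91 ± 0.13 in KO ns and 1.07 ± 0.23 in KO LPS samples, and these ranges overlapped. The constitutive subunits themselves rose: Psmb5, for instance, went up by 0.58 ± 0.08 in WT and 0.71 ± 0.08 in KO (edgeR adjusted p 4.31e-06 and 8.19e-08). The ratios describe unequal change of 2 genes, and a level of one gene is not compared with that of another here, since gene lengths differ.

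**Figure D3:**
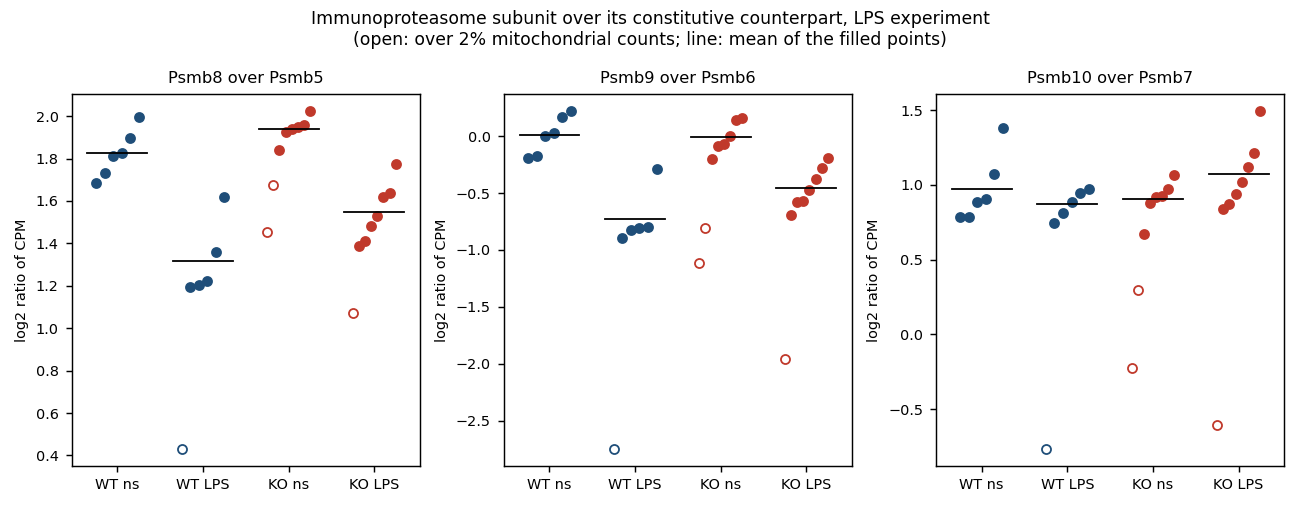
Log2 ratio of the CPM of each inducible proteasome subunit to that of the constitutive subunit it replaces, 1 point per sample of the LPS experiment, with open points for the libraries over 2% mitochondrial counts and a line at the mean of the filled points. The ratio for Psmb8 is lower in every filled LPS sample than in the filled ns samples of its genotype, that for Psmb9 is lower on average with KO samples just meeting (-0.201 and -0.195), and that for Psmb10 overlaps.

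Other genes of the pathway, from lists of 3 to 17 genes, are given without the high-mitochondrial libraries, followed by the count with all libraries. Shares of all genes called were 49.9% in KO and 49.6% in WT without those libraries, and 26.2% and 28.1% with all libraries. Of the other class I heavy chains 12 could be tested, and 9 rose and 2 fell in KO, 6 rose and 1 fell in WT (6 and 0, and 2 and 1, with all libraries). The median log2 fold change was 0.56 in KO and 0.30 in WT, against 0.00 and -0.01 over all genes. H2-Q4 rose by 0.78 ± 0.13 in KO and 0.64 ± 0.14 in WT, from 43.7 ± 1.10 to 74.4 ± 12.0 CPM in KO (edgeR adjusted p 1.8e-05 and 0.000397). H2-M2 rose most, by 3.69 ± 0.58 in KO and 4.20 ± 0.60 in WT, at low levels (0.178 ± 0.179 to 2.35 ± 0.714 CPM in KO). H2-M5 fell in both (edgeR adjusted p 0.00361 in KO and 0.000178 in WT).

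Of 4 class I-like genes, Cd1d1, which presents lipids, fell in both genotypes, from 18.1 ± 1.69 to 9.77 ± 1.08 CPM in KO and from 17.4 ± 1.21 to 10.2 ± 1.63 in WT (log2 fold changes -0.85 ± 0.09 and -0.75 ± 0.10, edgeR adjusted p 2.51e-08 and 7.6e-07). It fell with all libraries too. In KO 2 of the 4 rose, Fcgrt and Hfe. In WT Mr1 fell as well. With all libraries these 3 calls were lost, and Cd1d1 was the 1 gene called of the 4 in each genotype.

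All 5 loading and trimming genes of the endoplasmic reticulum rose in both genotypes (3 in each with all libraries). Calr, the chaperone calreticulin, rose by 1.12 ± 0.21 in KO and 0.85 ± 0.22 in WT, and Pdia3, the disulfide isomerase of the loading complex, by 0.93 ± 0.16 and 0.78 ± 0.17. Erap1, which trims peptides, rose by 0.48 ± 0.08 and 0.59 ± 0.08, and Tapbpl, a relative of tapasin, by 0.61 ± 0.11 and 0.47 ± 0.12.

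All 3 constitutive catalytic subunits rose in both genotypes, as did 11 of 12 other core proteasome genes in KO and 12 of 12 in WT. With all libraries 0 of these 15 were called in KO by edgeR (1 had an unadjusted p under 0.05), and 12 of 15 in WT. Psma6 had the largest change among the other core genes (0.90 ± 0.06 in KO and 0.95 ± 0.06 in WT). The 4 proteasome activators rose in both (3 in each with all libraries), with Psme2 from 65.9 ± 3.38 to 135 ± 14.3 CPM in KO and from 72.4 ± 3.48 to 129 ± 15.0 in WT. Psme1 and Psme2 form the interferon-inducible cap of the proteasome, and rose by 0.91 ± 0.07 and 1.08 ± 0.07 in KO and 0.79 ± 0.07 and 0.86 ± 0.08 in WT.

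Of 15 factors that act at class I promoters, 4 rose and 2 fell in KO and 4 rose and 4 fell in WT (4 and 0, and 3 and 0, with all libraries), with a median log2 fold change of -0.06 in KO and -0.04 in WT. The counts of this list lay near the shares of all genes called without the high-mitochondrial libraries (49.9% in KO and 49.6% in WT). Stat2, Irf1 and Irf9 were among those that rose in each genotype. Irf8 and Rfx5 fell in both, by 0.24 and 0.15 in KO and 0.30 and 0.28 in WT on the log2 scale, and Nfya and Creb1 fell in WT; these 4 are named because the counts are small. Stat2 and Irf9 are partners in the complex that type I interferon activates, and rose by 1.51 ± 0.10 and 0.89 ± 0.06 in KO and 1.37 ± 0.11 and 0.69 ± 0.06 in WT. Irf1, an interferon regulatory factor, rose by 0.76 ± 0.15 in KO and 0.53 ± 0.16 in WT (edgeR adjusted p 0.000148 and 0.00706). Of the interferons, their receptors and kinases 8 could be tested, and 4 rose in KO, 3 rose and 1 fell in WT, also near those shares. With all libraries 10 could be tested, and 2 rose and 1 fell in KO, while edgeR called 0 in WT (3 had an unadjusted p under 0.05). Ifnb1 was called as higher in KO only with the high-mitochondrial libraries (3.42 ± 1.21, edgeR adjusted p 0.0367), at a mean of 0.154 CPM in KO LPS samples, and Ifng was called there as lower (-2.06 ± 0.74, edgeR adjusted p 0.0382) at a mean of 0.384 CPM in KO ns samples.

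Marker genes of other cells moved with LPS beside these results. With the high-mitochondrial libraries left out, the 6 T and NK cell markers summed to 5.79 to 22.7 CPM in KO ns, 1.15 to 12.8 in KO LPS, 16.1 to 39.1 in WT ns and 6.6 to 24.3 in WT LPS samples. B cell markers summed to at most 5.68 CPM in any sample of the 4 groups. The border macrophage markers summed to 163 to 503 CPM in KO ns and 73.5 to 213 in KO LPS samples, and to 212 to 619 in WT ns and 74.6 to 284 in WT LPS samples. Neutrophil markers summed to 290 to 7418, 998 to 3602, 321 to 17274 and 1670 to 3438 CPM in KO ns, KO LPS, WT ns and WT LPS samples. Of 9 microglial markers 6 fell and 1 rose in WT, and 5 fell and 1 rose in KO. Astrocyte markers summed to 1.32 to 1.97 CPM in KO ns and 1.99 to 3.52 in KO LPS samples, which did not overlap, and 2 of 3 rose. Their sums were 1.33 to 2.27 in WT ns and 2.21 to 3.63 in WT LPS samples, and 1 of 3 rose. Endothelial markers summed to 59.8 to 74.8 and 23.2 to 48.2 CPM in KO ns and KO LPS, and to 45.6 to 57.2 and 14.5 to 34.7 in WT ns and WT LPS samples. Oligodendrocyte markers summed to 61.7 to 75.7 and 36.1 to 55.9 CPM in KO, and to 71.5 to 88.6 and 46.1 to 55.2 in WT. The sums of both of these lists were lower after LPS without overlap. Of 4 endothelial markers 2 fell in each genotype and 1 rose in KO, and of 3 oligodendrocyte markers 2 fell in each. Leaving out the neutrophil-rich WT ns libraries as well gave 9 members called in KO and 7 in WT. The share of all genes called there is not given here. With only the high-mitochondrial libraries left out it was 49.9% in KO and 49.6% in WT. The part of other cells in the results was not tested further.

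The next question is whether P2RY12 loss altered these genes in the LPS experiment. None of the 10 was called between KO and WT at ns, where 0.0891% of all genes were, or after LPS, where 0.078% were, and none was called for the genotype-by-LPS interaction, where 0.0% of all genes were (edgeR, with unadjusted p under 0.05 for 1, 0 and 0 of the 10; DESeq2 called 0 of the 10 in each). Leaving out the high-mitochondrial libraries also gave 0 calls in each, beside 0.252%, 0.252% and 0.00547% of all genes, and 1, 2 and 1 of the 10 had an unadjusted p under 0.05. B2m differed by 0.29 ± 0.08 at ns (1486 ± 113 CPM in KO, n = 6, against 1209 ± 83.6 in WT, n = 6; edgeR adjusted p 0.145) and by 0.29 ± 0.08 after LPS (2286 ± 269, n = 7, against 1863 ± 198, n = 5; edgeR adjusted p 0.132), and the groups overlapped. In these libraries ribosomal protein genes took 1.2% to 1.44% of the counts in KO ns against 1.04% to 1.25% in WT ns. After LPS they took 1.69% to 1.93% in KO against 1.52% to 1.69% in WT. Mitochondrial shares were 1.22% to 1.6% against 0.79% to 1.25% at ns, and 1.46% to 1.79% against 1.17% to 1.81% after LPS. The part of these shares in the B2m difference was not tested. Psmb9 differed by 0.27 ± 0.09 after LPS (edgeR adjusted p 0.221). The LPS comparisons of KO and of WT share no samples, and without the high-mitochondrial libraries the interaction for the 10 genes ran from 0.00 ± 0.11 (B2m) to 0.36 ± 0.26 (Nlrc5), with edgeR adjusted p of 0.933 or more. With all libraries it ran from -1.19 ± 0.61 (B2m) to 0.74 ± 0.55 (Nlrc5), with 6 of 10 above 0 and edgeR adjusted p of 0.784 or more. Neither shows that the genotypes responded alike.

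In the sex experiment B2m was the only one of the 10 genes called between KO and WT, and only in the average over the sexes. There 0.432% of all genes were called, 0.419% as higher. B2m was at 1148, 1181, 1097 and 1158 CPM in male WT and at 1566, 1466, 1347, 1247 and 1382 in male KO animals, which did not overlap. Female WT animals were at 1153, 1206, 1067 and 1134 CPM and female KO animals at 1510, 1656, 1131, 1389 and 1628, where only female KO 3 (1131) lay among the WT animals. B2m was higher in KO by 0.29 ± 0.10 in males and 0.36 ± 0.10 in females, neither of them called (edgeR adjusted p 0.719 and 0.225), and by 0.32 ± 0.07 over both (edgeR adjusted p 0.0397). The call held in 4 of 18 fits that left out 1 animal each, those without male WT 5, female WT 2, female KO 3 or male KO 4 (edgeR adjusted p 0.00455 to 0.117, log2 fold change 0.30 to 0.36). It was lost under RLE scaling (edgeR adjusted p 0.0546). Mitochondrial genes took 1.5% to 1.89% of the counts in KO and 1.2% to 1.47% in WT animals, and ribosomal protein genes 0.54% to 0.66% and 0.42% to 0.52%, so that both shares separated the genotypes as B2m nearly did; their part in the call was not tested. In females B2m was called when female KO 3 was left out (edgeR adjusted p 0.0245).

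The B2m counts of this table are tied to those of another gene. The span listed for Patl2 (chr2:121950589-122016670, minus strand) holds the whole of B2m, and its level was 1.01 to 1.02 times that of B2m in each animal, whereas in the LPS table it was at 0.0403 to 3.52 CPM. Patl2 was called alongside B2m (0.32 ± 0.07, edgeR adjusted p 0.0398), and the pair counts as 1 signal.

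**Figure D4:**
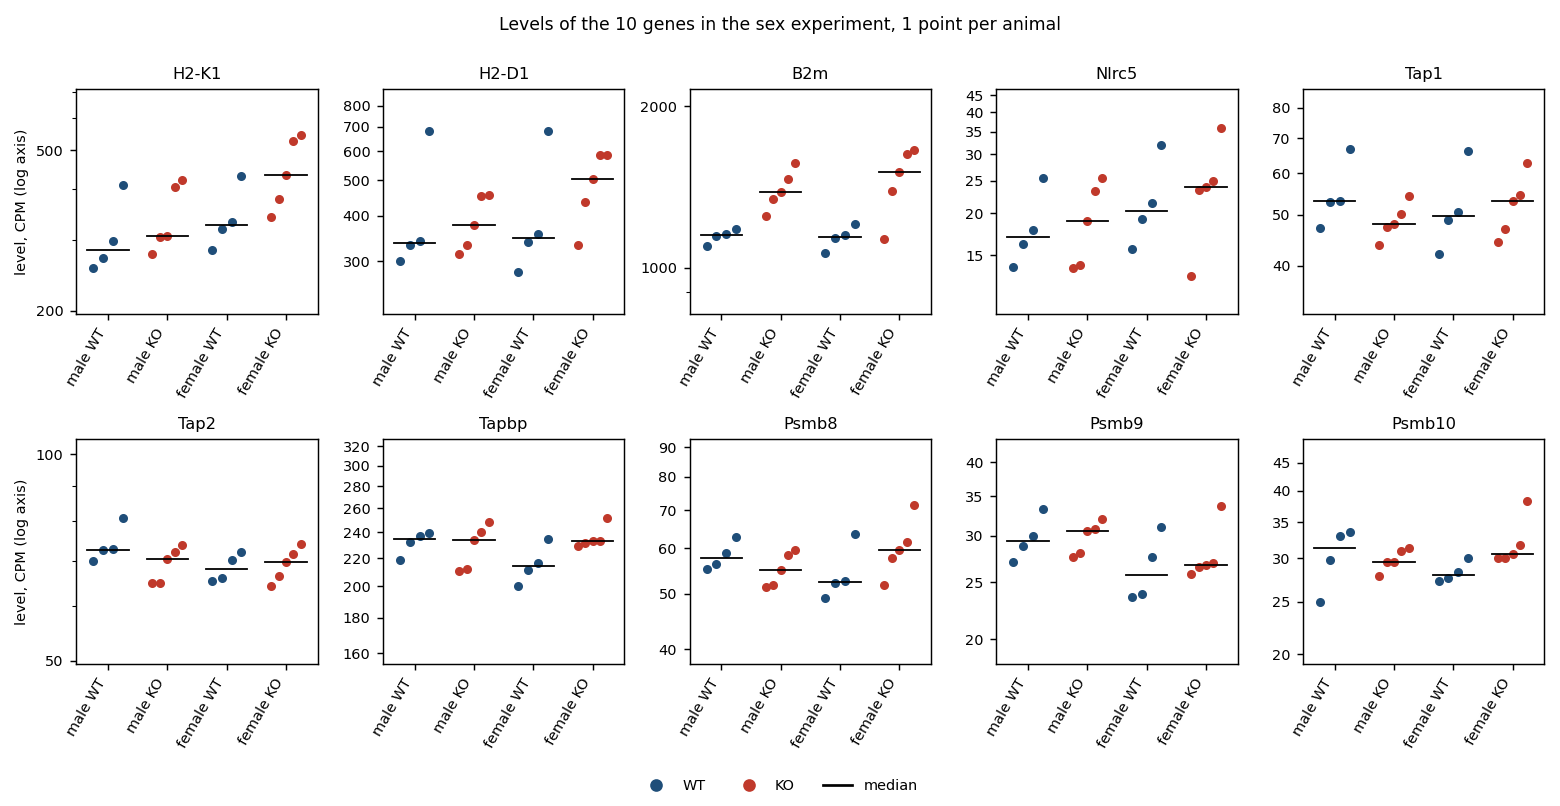
Levels in CPM (log axis) of the 10 genes in the sex experiment, 1 point per animal, with a line at the median of each group. B2m separates male WT (1097 to 1181 CPM) from male KO animals (1247 to 1566), the groups of the other 9 genes overlap, and male WT 5 and female WT 2 are the highest WT animals for H2-K1, H2-D1, Nlrc5 and Tap1.

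No member was called in males alone or in females alone, where 0.00946% and 0.164% of all genes were, and none for the sex-by-genotype interaction (0.0% of all genes; edgeR, unadjusted p under 0.05 for 1, 2 and 0 of the 10; DESeq2 called 0 in each). H2-K1 was at 270, 297, 255 and 411 CPM in male WT and at 421, 307, 304, 277 and 405 in male KO animals. It was at 283, 431, 319 and 332 CPM in female WT and at 380, 545, 341, 434 and 527 in female KO animals. The groups overlapped in both sexes, and male WT 5 (411) and female WT 2 (431) were the highest WT animals. H2-K1 differed by 0.15 ± 0.18 in males, 0.38 ± 0.18 in females and 0.27 ± 0.12 over both (edgeR adjusted p 0.965, 0.922 and 0.552).

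H2-D1 was at 300, 341, 332 and 680 CPM in male WT and at 454, 377, 313, 331 and 456 in male KO animals. Female WT animals were at 280, 683, 339 and 356 CPM and female KO animals at 435, 585, 331, 505 and 587. Male WT 5 and female WT 2 were the highest of their sex, above every KO animal. The difference over both sexes was 0.07 ± 0.20 (edgeR adjusted p 0.994). Those 2 animals also had neutrophil marker sums of 48090 and 28550 CPM, against 718 to 7644 in the other 16, and monocyte marker sums of 688 and 412 CPM, against 45.2 to 180. Without them H2-D1 differed by 0.42 ± 0.13, H2-K1 by 0.42 ± 0.12 and Nlrc5 by 0.32 ± 0.20 over both sexes, none of them called (edgeR adjusted p 0.223, 0.15 and 0.92), and B2m was called at 0.34 ± 0.07 (edgeR adjusted p 0.0172). The share of neutrophils moved with these levels, and its part was not tested beyond leaving the 2 animals out.

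The remaining 7 genes lay close together in the 4 groups. Nlrc5 was at 18.3 ± 5.05 (SD, n = 4), 19.1 ± 5.29 (n = 5), 22.1 ± 6.99 (n = 4) and 24.3 ± 8.16 CPM (n = 5) in WT males, KO males, WT females and KO females. Tapbp ran from 201 to 252 CPM, Tap2 from 64.3 to 80.8 and Tap1 from 42.2 to 66.6 over the 18 animals. Psmb8 ran from 49.1 to 71.5 CPM, Psmb10 from 24.96 to 38.2 and Psmb9 from 23.6 to 33.6. Over both sexes these 7 differed by between -0.08 and 0.10 on the log2 scale, with SEs of 0.05 to 0.20. All 10 members were higher in KO by the fit in females and 4 of 10 in males (medians 0.14 and -0.02, against -0.01 over all genes in each), and the interaction above is the test of that difference.

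Between female and male animals none of the 10 was called, where 0.861% of all genes were (edgeR, unadjusted p under 0.05 for 1 of the 10; DESeq2 called 0). Nlrc5 differed by 0.31 ± 0.20 (edgeR adjusted p 0.532) and H2-K1 by 0.26 ± 0.12 (edgeR adjusted p 0.399). The pathway lists gave no call between KO and WT in the sex experiment by edgeR. The one call between the sexes was Ifng, the type II interferon, higher in females by 1.40 ± 0.31 (edgeR adjusted p 0.043), at 4.13 ± 3.22 CPM (SD, n = 5) in female KO, 3.46 ± 1.78 (n = 4) in female WT, 1.34 ± 0.337 (n = 5) in male KO and 1.501 ± 0.412 (n = 4) in male WT animals.

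**Figure D5:**
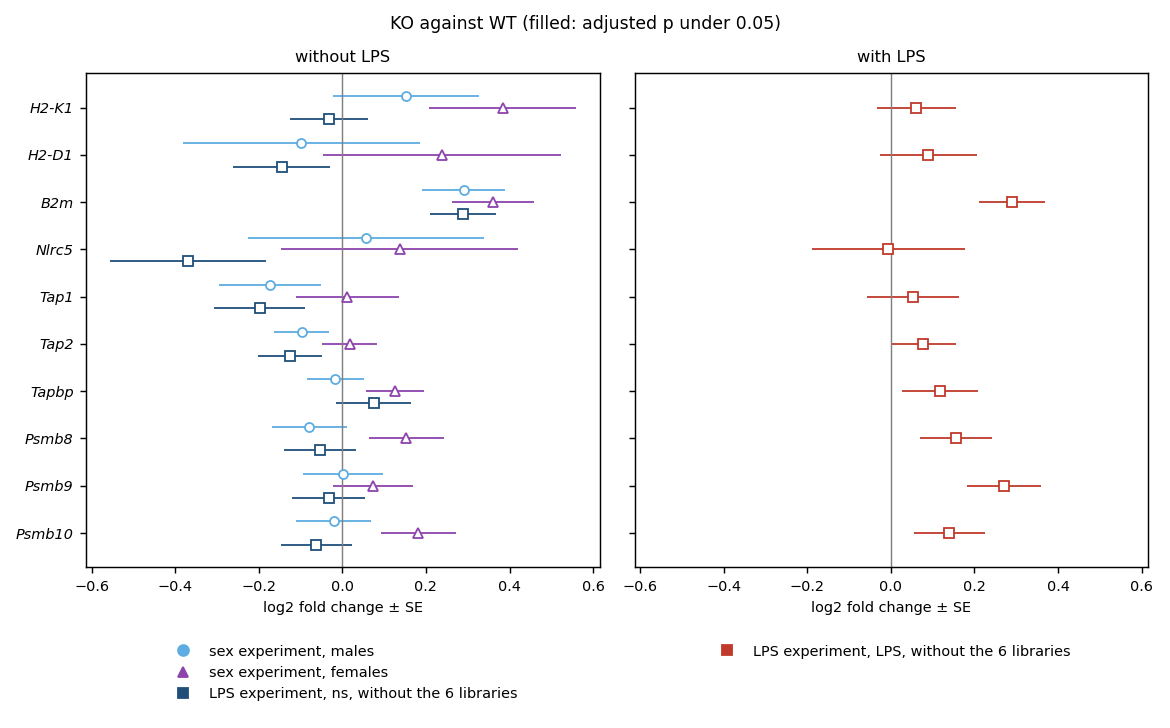
Log2 fold change of KO against WT with its SE for the 10 genes, without LPS (left: males and females of the sex experiment and ns samples of the LPS experiment) and after LPS (right), the LPS experiment without the 6 high-mitochondrial libraries. No symbol is filled, since no adjusted p is under 0.05 in these comparisons, and B2m lies between 0.29 and 0.36 in all 4.

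How closely the members moved together was described by Pearson's r of each with the mean of the other 9, over log levels of samples that share their libraries and treatment groups. In the 26 samples of the LPS experiment without the high-mitochondrial libraries, r was -0.15 for Psmb9 and 0.64 to 0.92 for the other 9, with Psmb10 (0.922) and H2-K1 (0.903) highest. In all 32 samples r was 0.04 for B2m and 0.07 for Psmb9, and highest for H2-D1 (0.879). In the 18 animals of the sex experiment it ran from 0.35 (Psmb10) to 0.95 (Psmb8). The genes outside the members whose level was most like the mean of the 10 in the 26 samples were Znfx1, Chmp4b, Ogfr, Igtp and Parp10 (r 0.921 to 0.937). In all 32 samples they were Atp5d, Sys1, Ap1s1, Lsm4 and Mpv17l2 (r 0.875 to 0.894), and in the sex experiment Tomm6os, Cdc37, Tmem14c, Atp6v1f and Mknk2 (r 0.848 to 0.881).

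Reads could be shared with other genes. For the heavy chains H2-K1 and H2-D1 these were each other and relatives such as H2-Q1. For the others they were overlapping or neighbouring genes (Gm19412 for Tapbp, Tap1 for Psmb9). Of all 50-base windows of their transcripts, 22.4% also occur in a transcript of another gene for Tapbp, 13.9% for H2-D1, 12.1% for Tap2, 9.7% for Psmb9, 6.9% for H2-K1, 6.3% for Tap1 and 5.5% for Psmb8, and 0.0% for B2m, Nlrc5 and Psmb10. At 100 bases the share for H2-D1 was 4.1% and that for H2-K1 0.0%.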

How the data were processed

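Poly(A) RNA of CD11b-positive brain cells was sequenced as read pairs. The authors deposited a table of gene counts for each experiment; STAR 2.6.1, featureCounts, Subread, FastQC and DESeq2, and build GRCm39, are named in the submitters' processing notes. Of 57 samples listed, 51 columns were used and 6 repeat libraries were not analysed here. In the sex table the length listed for each of the 10 genes is its whole span, introns included, so that reads in introns and in genes inside a span may be counted; whether strand was used is not given in the sources used here.

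Genes were kept by the default of filterByExpr and scaled by TMM, and CPM are per scaled library. The edgeR 4.0.16 quasi-likelihood F test (robust, R 4.3.3) was fitted on each whole table, with Benjamini-Hochberg adjustment over all genes tested. An SE is the fold change divided by the square root of F. The LPS fit had the library set as a covariate. DESeq2 1.42.0 was an alternative. The steps were tested on simulated counts. For KO against WT in males, 19% of genes changed 2-fold and 97% of those changed 4-fold were called. For LPS in KO these shares were 63% and 93%. A gene that was not called may therefore still differ. Biological variation, as the square root of the dispersion that edgeR fits in common to all genes, was 35.3% in the sex experiment. It was 42.3% in the LPS experiment and 23.7% there without the high-mitochondrial libraries. Of each gene list, at most the 4 called genes of largest change are named, and P2ry12, Saa3 and Psmb5 to Psmb7 besides; Patl2 was named after its values were seen. The members and gene lists were chosen with earlier results of these data known. 1 gene of the lists is not reported here.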

Additional observations from a re-analysis of the deposited data

Results flagged for a closer look

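In groups of 4 to 10 samples, a highest or lowest sample was looked for whose gap to the next took most of its group's range (Dixon's test at 95%). Of 80 combinations of gene and group, 21 had such a sample, where chance gives about 1 in 20 and 15 of the 21 are high-mitochondrial libraries. Library KO LPS 5 stood apart for H2-D1 (215.35 CPM), B2m (6142.6), Tap1 (35.25), Tap2 (15.68) and Tapbp (49.948). Library KO ns 6 did so for H2-K1 (853.1), B2m (10556), Psmb8 (184.62), Psmb9 (78.216) and Psmb10 (132.88), and KO ns 5 for H2-D1 (284.15). Library WT LPS 7 did so for H2-K1 (1617.2), B2m (12954), Tap2 (49.423) and Psmb10 (159.28). The direction thus differed by gene: B2m was high and Tap2 and Tapbp were low.

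The other 6 were not high-mitochondrial. They were Tapbp (251.89), Psmb9 (33.643) and Psmb10 (38.222) in female KO 2, H2-D1 (680.14) in male WT 5, Psmb9 (52.407) in WT LPS 5 and Psmb8 (109.47) in WT ns 4.

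The number-2 libraries labelled WT ns, which enter no comparison of groups other than as labelled, lay above every other WT ns sample for several genes. WT ns 1 did so for H2-K1 (762.64 CPM against 471.58 at most), H2-D1 (822.77 against 729.58), B2m (1842.1 against 1351.2), Tap1 (144.46 against 110.34), Nlrc5 (96.336 against 43.195) and Psmb10 (86.936 against 83.284). WT ns 5, also high-mitochondrial, did so for H2-K1 (665.88), B2m (3729.3), Nlrc5 (61.457) and Psmb10 (91.085). Saa3 was high in both.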

How the results depend on the processing

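No fold change called with all libraries turned its direction. Of those called in other settings, B2m with LPS in KO was -0.19 without number 2 in all groups and -0.10 in set 2 alone, and Tapbp with LPS in WT was -0.0008 with the replicate block, none of these 3 called. In all 1940 values kept their side of the threshold, 52 gained a call and 28 lost it. For LPS in WT, with 4 members called, the count was 0 as labelled, 1 in library set 2 alone, 7 without number 2 in all groups, 8 without the high-mitochondrial libraries, 7 in set 2 alone without them and 7 without them and the neutrophil-rich ones. For LPS in KO, also with 4, it was 8 in set 1 alone, 0 in set 2 alone, 9 without the high-mitochondrial libraries, 9 as labelled without them, and 9 without them and the neutrophil-rich ones. DESeq2 called 4 in KO and 6 in WT. Between KO and WT over both sexes, RLE scaling gave 0 in place of 1, and leaving out 1 animal gave 0 to 1. In females leaving out 1 animal gave 0 to 1. Splits by mitochondrial share and by neutrophil markers were chosen after seeing the data. The causes were not tested.

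Replicate numbers were not taken as pairs, since not every same-numbered pair correlated over 0.1. The mean correlation was 0.205 over 8 same-numbered pairs in the sex experiment (6 over 0.1) and -0.048 over 32 others, and 0.229 over 35 (20 over 0.1) and 0.024 over 257 in the LPS experiment, so same-numbered samples were on average more alike. With the replicate block, the count of members was 7 for LPS in WT and 5 in KO, 1 over both sexes and 0 in each sex. The shares of all genes called with LPS in that fit are not given here.

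Over all genes, the count for males (3) was 24 by DESeq2, 6 at a mean of 5 CPM and 5 with the block. For females (52) it was 213 by DESeq2, 96 without a filter, 79 at 5 CPM, 3 with only the groups compared, 85 with the block and 192 without the neutrophil-rich animals. For both sexes (137) it was 359 by DESeq2, 218 at 5 CPM and 309 without the neutrophil-rich animals, and for female against male (273) 754 by DESeq2 and 99 at 5 CPM. For LPS in KO (4696) it was 3023 at 5 CPM, 7118 in set 1, 721 in set 2 and 9120 without the high-mitochondrial libraries. For LPS in WT (5039) it was 3277 at 5 CPM, 532 in set 2, 9065 without those libraries and 0 as labelled. For KO against WT at ns (16) it was 52 by DESeq2, 7 at 5 CPM, 1 in set 2 and 46 without those libraries. For KO against WT after LPS (14) it was 41, 6, 0 and 46 in the same order, 3 with only the groups compared, 36 with the block and 25 in set 1. The genotype-by-LPS interaction (0) gave 3 by DESeq2, 1 in set 1 and 1 without those libraries. Leaving out 1 animal gave 3 to 4 genes in males, 5 to 132 in females, 54 to 279 over both and 167 to 495 for female against male.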
